A study of Mus musculus with 8 samples.

Results

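The genes described here make cholesterol and fatty acids under the control of the SREBP transcription factors, together with a few genes of the LXR sterol sensor. Members were taken by gene symbol from a list of 36 names. Of these, 35 were in the deposited table of 22432 genes and 1, Msmo1, was not listed under that name. All 35 passed the filter on low values (an un-logged mean no lower than 1), as 13797 genes did, and each was tested.

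RNA was sequenced from 8 libraries of mouse regulatory T (Treg) cells, which hold immune responses in check and depend on the transcription factor Foxp3, with 2 libraries in each of 4 genotypes. All mice were C57Bl/6 and carried Foxp3-CRE-YFP, which expresses Cre recombinase and a YFP reporter from Foxp3, so that floxed alleles are removed in Foxp3-expressing cells. WT mice carried this allele alone, RelB-KO mice also RelB F/F, Nfkb2-KO mice also nfkb2 F/F, and DKO mice both floxed genes. Sorted YFP-positive cells from spleen and lymph nodes, pooled together, were stimulated for 16 h with IL-2 (10 ng/ml), plate-bound anti-CD3 (5 µg/ml), anti-CD28 (1 µg/ml) and agonist anti-OX40 (2 µg/ml). The labels give no ages and do not say whether replicates came from separate animals, so p-values measure only the spread between these libraries. All cells were stimulated, and unstimulated cells were not analysed here.

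Cholesterol is built from acetyl-CoA through mevalonate, isoprenoids and squalene to lanosterol, which is trimmed to cholesterol in a series of steps. When sterols in the endoplasmic reticulum are low, SCAP carries the SREBP precursors to the Golgi, where they are cut to release factors that raise transcription of sterol and fatty acid enzymes, while INSIG1 holds SCAP back when sterols are plentiful. When sterols are in excess, oxysterols activate LXR, which raises export pumps and the LDL receptor-degrading ligase MYLIP. T cells draw on these pathways for membrane when they are activated and divide.

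RefSeq promoter sequences were available for 28 of the genes, Msmo1 included, with 34 promoters because some genes have several starts. Scd2, Fdft1, Fdps and Sqle were among the genes without one, so the shares below leave them out. Each spans 250 bases before to 50 bases after a start in build GRCm38.p6. They were searched on both strands for an SRE-like motif (CACNCCAC), the CCAAT box (CCAAT), an E-box (CACGTG) and the kB consensus. The SRE-like motif was found in 3 of 34 promoters (8.82%), against 6.24% of all 32851 promoters of this length. The CCAAT box was found in 22 (64.7%, against 37.4%), the E-box in 7 (20.6%, against 7.15%) and the kB consensus in 5 (14.7%, against 8.46%). A match is a run of letters, not a known binding site. The promoters below are those of Hmgcs1 and Insig1, both with an SRE-like match, of Cyp51 and Sc5d, which were higher in both Nfkb2-KO libraries than in both WT libraries, and of Dhcr7, which was lower there. Capitals mark SRE-like, CCAAT box and E-box matches on either strand, and no matches overlap in these sequences. They lie at chr13:119690101-119690400 on the plus strand (Hmgcs1), chr5:28071162-28071461 on the plus strand (Insig1), chr5:4104648-4104947 on the minus strand (Cyp51), chr9:42264251-42264550 on the minus strand (Sc5d) and chr7:143829964-143830263 on the plus strand (Dhcr7, 1 of 3 starts).
Hmgcs1: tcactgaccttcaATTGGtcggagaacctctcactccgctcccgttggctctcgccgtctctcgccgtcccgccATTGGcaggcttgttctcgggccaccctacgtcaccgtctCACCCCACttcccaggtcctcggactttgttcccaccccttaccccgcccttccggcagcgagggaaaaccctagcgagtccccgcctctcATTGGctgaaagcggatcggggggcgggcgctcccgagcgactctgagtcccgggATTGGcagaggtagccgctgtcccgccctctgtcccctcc
Insig1: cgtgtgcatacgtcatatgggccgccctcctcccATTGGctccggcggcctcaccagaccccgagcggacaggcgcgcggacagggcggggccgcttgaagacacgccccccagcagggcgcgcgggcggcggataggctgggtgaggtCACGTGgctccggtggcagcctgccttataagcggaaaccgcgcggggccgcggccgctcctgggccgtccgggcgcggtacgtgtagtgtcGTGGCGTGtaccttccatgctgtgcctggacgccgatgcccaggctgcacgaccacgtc
Cyp51: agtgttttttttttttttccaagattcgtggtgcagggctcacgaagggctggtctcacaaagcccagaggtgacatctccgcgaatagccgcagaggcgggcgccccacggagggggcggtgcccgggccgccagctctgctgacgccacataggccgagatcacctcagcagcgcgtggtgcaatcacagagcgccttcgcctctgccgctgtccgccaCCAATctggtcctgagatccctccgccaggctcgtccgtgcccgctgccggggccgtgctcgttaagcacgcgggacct
Sc5d: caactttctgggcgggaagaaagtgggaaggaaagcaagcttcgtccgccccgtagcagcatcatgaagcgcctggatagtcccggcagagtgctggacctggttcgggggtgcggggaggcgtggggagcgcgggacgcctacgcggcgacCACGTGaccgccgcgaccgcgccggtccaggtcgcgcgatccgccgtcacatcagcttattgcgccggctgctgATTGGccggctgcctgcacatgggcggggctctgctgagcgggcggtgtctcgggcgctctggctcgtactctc
Dhcr7: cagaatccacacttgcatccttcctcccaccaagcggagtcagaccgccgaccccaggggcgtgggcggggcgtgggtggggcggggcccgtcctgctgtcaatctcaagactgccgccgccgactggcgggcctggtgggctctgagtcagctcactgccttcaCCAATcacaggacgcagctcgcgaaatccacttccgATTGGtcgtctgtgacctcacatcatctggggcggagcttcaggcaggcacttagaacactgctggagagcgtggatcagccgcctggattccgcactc
The Hmgcs1 promoter holds 4 CCAAT boxes beside its SRE-like match. The Insig1 promoter holds 1 match of each of these 3 motifs, the Sc5d promoter a CCAAT box and an E-box, the Cyp51 promoter 1 CCAAT box, and this Dhcr7 promoter 2 CCAAT boxes. Cyp51 and Sc5d, with higher values in Nfkb2-KO cells, and Dhcr7, with lower values, thus carry CCAAT boxes in the windows shown. The windows at the other Dhcr7 starts hold no CCAAT box, and the window from chr7:143823149 holds an E-box.

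The libraries matched their labels at the targeted genes. Relb lay between 10.49 and 10.84 in the libraries with an intact gene and between 6.35 and 7.08 in RelB-KO and DKO libraries, as deposited log2 values. Nfkb2 lay between 12.31 and 12.80 in the libraries with an intact gene. It was at 8.75 and 8.79 in Nfkb2-KO and higher, at 9.29 and 9.85, in DKO libraries. The Foxp3 level ranged from 13.95 to 14.28. The summed log2 level of 6 Treg markers, Foxp3 among them, was 17.22 to 17.25 in WT and 17.25 to 17.38 in RelB-KO. It was 17.27 to 17.29 in Nfkb2-KO and higher, at 17.48 to 17.52, in DKO libraries. Of these markers, Il2ra was at 15.93 and 15.94 in WT and at 16.33 and 16.52 in DKO libraries. The X-linked transcript Xist was at 8.17 in WT replicate 1 and at 14.61 to 15.13 in the other 7 libraries. The Y-linked Ddx3y was at 11.60 in WT replicate 1 and at 4.25 to 4.35 in the other 7, so the sexes of the WT libraries differ. The members Ebp and Nsdhl lie on the X chromosome. The part of sex in the comparisons that use WT was not tested. Among markers of other cells, the summed B cell level was 7.24 to 7.47 in WT, 7.32 to 7.72 in RelB-KO, 7.61 to 7.69 in Nfkb2-KO and 7.74 to 7.81 in DKO on the log2 scale, with a value for 4 of 5 markers. It was carried by Cd79b (7.09 to 7.72), while Pax5 was at 0 or had no value. The summed adipocyte level was 1.35 to 1.38 in all libraries, with Plin1 at 0 or without a value. The summed myeloid and dendritic level was 5.93 to 6.65 and the summed CD8 and NK level 8.01 to 8.28. Of the erythroid markers, 4 of 5 were at 0 or had no value. The part of other cells in the results was not tested, and in bulk RNA fewer cells of a type and less RNA per cell cannot be told apart.

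Both arms of lipid synthesis were expressed in stimulated WT Treg cells. The values are headed as RPKM but did not behave so, and were scaled here to exonic length merged over all transcripts. Merged length can exceed that of the longest coding transcript (Lss 10.79 kb against 4667 bases), so the order of genes is approximate. Per kilobase of exon, the highest member on the log2 scale was Acly, the enzyme that makes cytosolic acetyl-CoA, at 10.36. Next were Srebf2, which encodes the SREBP of cholesterol genes, at 10.22, and Fasn, the fatty acid synthase, at 9.92. Nr1h2, which encodes LXR beta, was at 9.71, and Cyp51, the lanosterol demethylase, at 9.44. The lowest levels were those of the cholesterol pump Abca1 (2.55), the desaturase Scd1 (1.96) and the desaturase Fads2 (1.24). Scd2, the other stearoyl-CoA desaturase measured, was at 8.17 per kilobase, so that Scd2 rather than Scd1 had the higher level of this pair in these cells. Scd1 and Scd2 match each other at 90% identity or more over 21.6% and 11.4% of their transcripts, and how reads matching both were counted is not given in the sources used here.

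**Figure D1:**
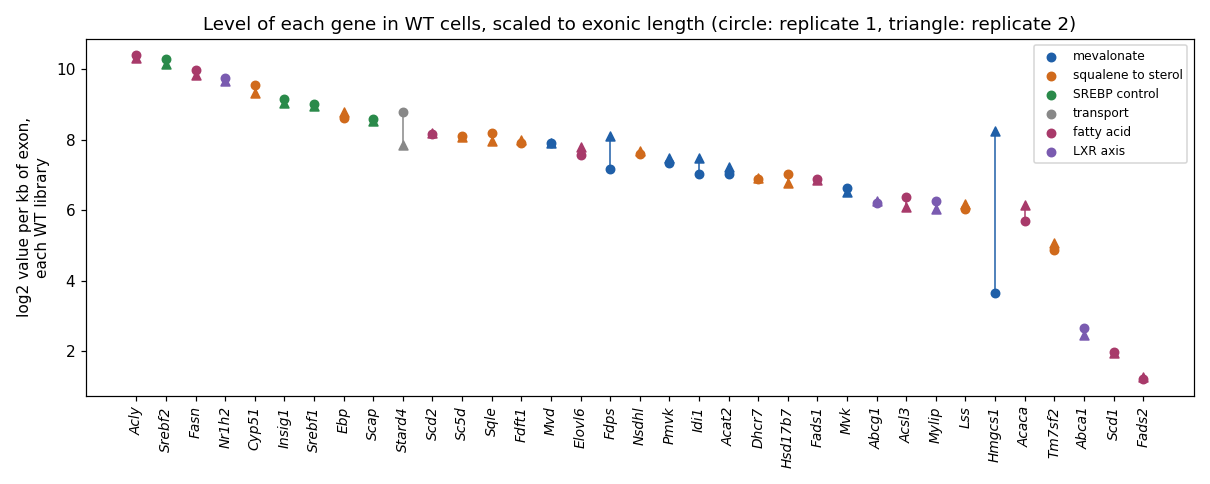
Level of each of the 35 genes in the 2 WT libraries (y axis, deposited log2 value less log2 of exonic kilobases; x axis, genes from highest to lowest mean), with a circle for replicate 1, a triangle for replicate 2 and colours for roles. Acly (mean 10.36) leads and Fads2 (1.24) is last, and the Hmgcs1 libraries lie farthest apart.

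In 4 members the libraries with replicate number 2 were above those with number 1 by more than 0.4 log2 units in every genotype. Hmgcs1, the HMG-CoA synthase early in the pathway, was at 5.86 in WT, 5.86 in RelB-KO, 5.89 in Nfkb2-KO and 5.83 in DKO replicate 1 libraries, and at 10.44, 10.63, 10.67 and 10.75 in the replicate 2 libraries of the same genotypes. The replicate 2 library was thus higher by 4.58 to 4.92 log2 units in every genotype, while genotypes with the same replicate number lay close together. The gap was 0.93 to 1.08 for Fdps, the farnesyl diphosphate synthase, 0.46 to 0.84 for Idi1, the isopentenyl diphosphate isomerase, and 0.44 to 0.62 for Acaca, the acetyl-CoA carboxylase. These 4 of 35 members (11.4%) had a mean gap over 0.4, against 5.25% of all tested genes, and 1 (2.86%) had a gap over 2, against 0.754%. Mean gaps of the other 31 members lay between -0.34 and 0.22.

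Of these 4 genes, 3 have near copies in the genome. Fdps matches 5 pseudogenes at 90% identity or more over 76.8% of its transcript, Idi1 matches 3 over 22.6%, and Acaca matches 1 over 64.3%, whereas Hmgcs1 has no such match but shares 557 exonic bases with the antisense gene Gm48342. Fdps also shares 1124 exonic bases with Gm43738 on the same strand. Values of these genes, and of Fdft1, which matches 1 pseudogene over 33.7% and shares 774 exonic bases with Ctsb on the opposite strand, are uncertain to that extent, since the counting method is not given in the sources used here. Among the other members, Acat2, Elovl6, Fdft1, Scd1 and Scd2 also have near copies, at mean gaps of 0.22, 0.21, 0.09, 0.003 and 0.14. The part of near copies in the gap was not tested.

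**Figure D2:**
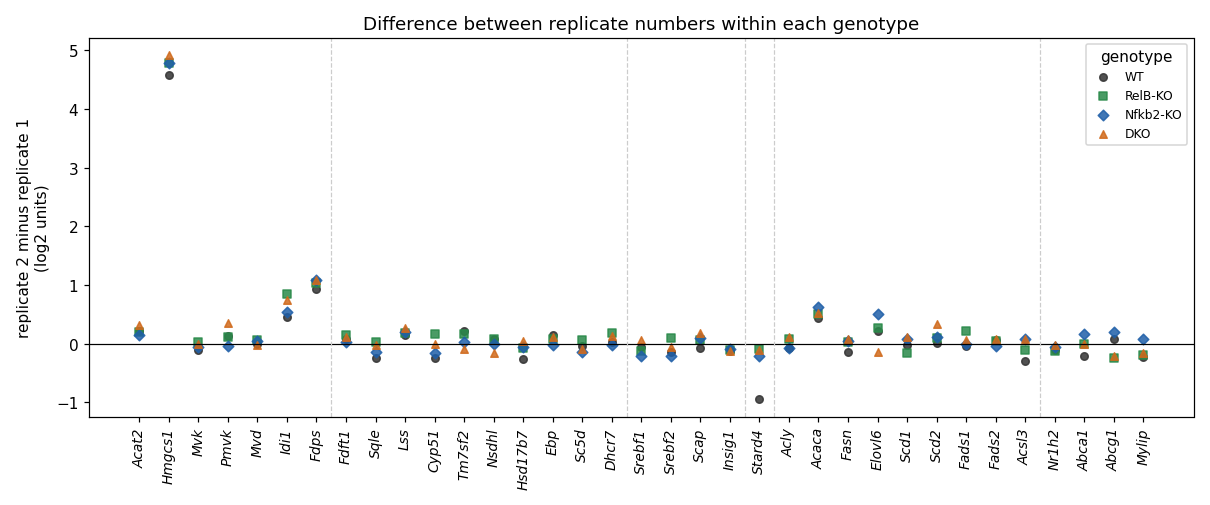
Replicate 2 minus replicate 1 in each genotype (y axis, log2 units) for the 35 genes (x axis, ordered by role, with dashed lines between roles), 1 symbol per genotype. Hmgcs1 lies between 4.58 and 4.92 and Fdps between 0.93 and 1.08 in all genotypes, and Stard4 is at -0.95 in WT alone.

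Stard4, a carrier that moves cholesterol between membranes, differed in 1 library. Its values were 11.27 and 10.32 in WT, 10.44 and 10.35 in RelB-KO, 10.63 and 10.42 in Nfkb2-KO, and 10.66 and 10.54 in DKO libraries, replicate 1 first. WT replicate 1 was the highest of the 8 libraries, and WT replicate 2 was the lowest. The difference from WT was -0.27 ± 0.28 (SE) in Nfkb2-KO, -0.40 ± 0.28 in RelB-KO and -0.20 ± 0.28 in DKO cells, and 0 of the 3 were called (limma adjusted p 0.826, 1.00 and 0.959). Without WT replicate 1, the library with low Xist and high Ddx3y, the 3 differences were 0.20, 0.07 and 0.27.

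In Nfkb2-KO cells, most genes from mevalonate to sterol had higher mean values than in WT, by small amounts. Of 7 mevalonate pathway genes 6 were positive, with a median log2 difference of 0.13, and of 10 genes from squalene to sterol 8 were positive, with a median of 0.20. The 9 fatty acid genes were split 5 to 4 with a median of 0.00, and of the 4 LXR genes 1 was positive. Over all 35 members 23 were positive and the median was 0.07 (range -0.39 to 0.44), beside a median of 0.00 over all tested genes. No member passed the test on its own. With limma and Benjamini-Hochberg adjustment 0 of 35 members were called, against 0.341% of tested genes, and 9 members, 6 higher and 3 lower, had an unadjusted p under 0.05, against 10.7% of tested genes.

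Replicate numbers deviated together across genotypes, and a model with the replicate number as a block gave calls that the model without it did not. With the replicate block 1 member, Scd2, rose in Nfkb2-KO cells, against 2.91% of tested genes called, and 15 members, 10 higher and 5 lower, had an unadjusted p under 0.05, against 18.3%. The called share of members is near that of all genes. Among the authors' deposited adjusted p-values for Nfkb2-KO against WT, 2 of 35 members were under 0.05, against 6.22% of genes there. These were Scd2 (log2 fold change 0.48, authors' adjusted p 0.00196) and Fdps (0.38, authors' adjusted p 0.0207). For RelB-KO and for DKO against WT, 0 of 34 members were under 0.05 there, against 0.119% and 1.23% of genes.

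Scd2 (chromosome 19, 44293674 to 44306864, plus strand, GENCODE on GRCm38) makes monounsaturated fatty acids from saturated ones. Its values were 10.61 and 10.63 in WT, 10.47 and 10.56 in RelB-KO, 11.01 and 11.12 in Nfkb2-KO, and 10.70 and 11.03 in DKO libraries. Both Nfkb2-KO libraries lay above both WT and both RelB-KO libraries, and DKO replicate 2 reached the Nfkb2-KO range. The means were 11.07 ± 0.07 (SD, n = 2) in Nfkb2-KO and 10.62 ± 0.01 (SD, n = 2) in WT cells. The difference was 0.44 ± 0.12 (SE) with a limma adjusted p of 0.267, and of 0.0348 with the replicate block. With the block and any 1 library of these genotypes left out, the adjusted p lay above the threshold, and without WT replicate 1 it was 0.0622.

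Cyp51, Sqle and Fdft1, enzymes from squalene synthesis to lanosterol demethylation, had higher values in Nfkb2-KO than in WT cells. Cyp51 was at 11.70 and 11.46 in WT, 11.46 and 11.63 in RelB-KO, 11.98 and 11.82 in Nfkb2-KO, and 11.83 and 11.82 in DKO libraries. Both Nfkb2-KO and both DKO libraries were above all 4 libraries of the other genotypes, and the difference between Nfkb2-KO and WT was 0.32 ± 0.11 (limma adjusted p 0.395), or 0.20 without WT replicate 2. Sqle, the squalene epoxidase, was at 10.67 and 10.43 in WT, 10.51 and 10.54 in RelB-KO, 10.89 and 10.75 in Nfkb2-KO, and 10.83 and 10.81 in DKO libraries. It showed the same split of libraries as Cyp51, with Nfkb2-KO above WT by 0.27 ± 0.10 (limma adjusted p 0.418), or 0.15 without WT replicate 2. Fdft1, the squalene synthase (chromosome 14, 63145150 to 63179578, minus strand), was at 9.99 and 10.07 in WT, 9.79 and 9.94 in RelB-KO, 10.25 and 10.28 in Nfkb2-KO, and 10.09 and 10.21 in DKO libraries. Here RelB-KO libraries were lowest and Nfkb2-KO libraries highest with no overlap between any of the 4 genotypes, and Nfkb2-KO was above WT by 0.23 ± 0.09 (limma adjusted p 0.409).

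Dhcr7 (chromosome 7, 143823145 to 143848410, plus strand), which reduces its dehydrocholesterol substrate to cholesterol, had lower values in Nfkb2-KO cells, unlike most enzymes of its route. Its values were 9.44 and 9.46 in WT, 9.48 and 9.65 in RelB-KO, 9.16 and 9.14 in Nfkb2-KO, and 9.53 and 9.66 in DKO libraries. Nfkb2-KO libraries were the lowest 2 of the 8, and DKO libraries were not low. Both genotypes carry nfkb2 F/F, and DKO cells also carry RelB F/F. The remaining Nfkb2 transcript was at 8.75 and 8.79 in Nfkb2-KO and higher, at 9.29 and 9.85, in DKO libraries. The part of this remaining transcript in the Dhcr7 values was not tested. The difference between Nfkb2-KO and WT was -0.29 ± 0.09 (limma adjusted p 0.339, and 0.0996 with the replicate block).

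In the mevalonate arm Fdps (chromosome 3, 89093588 to 89101959, minus strand) was at 9.25 and 10.17 in WT, 9.14 and 10.16 in RelB-KO, 9.50 and 10.58 in Nfkb2-KO, and 9.47 and 10.55 in DKO libraries. Within each replicate number the Nfkb2-KO library was above WT, by 0.25 and 0.41, although the genotypes overlap because of the replicate gap. The limma adjusted p of the mean difference of 0.33 was 0.924, and 0.0567 with the replicate block, where the standard error fell from 0.57 to 0.08. Mvd, the mevalonate diphosphate decarboxylase, was at 8.80 and 8.79 in WT, 8.88 and 8.95 in RelB-KO, 8.97 and 9.02 in Nfkb2-KO, and 9.015 and 8.998 in DKO libraries. All 6 knockout libraries were above both WT libraries, and the difference between Nfkb2-KO and WT was 0.19 ± 0.07 (limma adjusted p 0.412).

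Acsl3, Elovl6, Abcg1 and Mylip had lower means in Nfkb2-KO than in WT cells. Acsl3, which activates fatty acids by joining them to coenzyme A, was at 8.50 and 8.20 in WT, 8.37 and 8.26 in RelB-KO, 7.92 and 8.01 in Nfkb2-KO, and 8.28 and 8.36 in DKO libraries. Its Nfkb2-KO libraries were the lowest 2 of the 8, with a difference from WT of -0.39 ± 0.12 (limma adjusted p 0.330), or -0.24 without WT replicate 1. Elovl6, an elongase of long-chain fatty acids, was at 10.26 and 10.47 in WT, 10.28 and 10.55 in RelB-KO, 9.74 and 10.26 in Nfkb2-KO, and 10.29 and 10.14 in DKO libraries. Only the replicate 1 Nfkb2-KO library stood well below the rest, and the difference from WT was -0.36 ± 0.19 (limma adjusted p 0.590). Abcg1, a sterol exporter and LXR target, was at 9.06 and 9.13 in WT, 9.29 and 9.05 in RelB-KO, 8.72 and 8.93 in Nfkb2-KO, and 8.96 and 8.75 in DKO libraries. All 4 libraries with nfkb2 F/F were below the 4 without it, and the difference between Nfkb2-KO and WT was -0.27 ± 0.13 (limma adjusted p 0.534). The other sterol exporter, Abca1, was at 6.03 and 5.82 in WT and at 5.99 and 6.15 in Nfkb2-KO libraries, which overlapped, with a difference of 0.14 ± 0.10 (limma adjusted p 0.695). Mylip, the ligase that sends lipoprotein receptors to lysosomes, was at 7.94 and 7.72 in WT, 8.06 and 7.87 in RelB-KO, 7.64 and 7.73 in Nfkb2-KO, and 7.92 and 7.76 in DKO libraries, where WT and Nfkb2-KO libraries overlapped.

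The libraries were also counted, which reads the same values again and is no separate evidence. In 12 of 35 members (34.3%) both Nfkb2-KO libraries were above both WT libraries, against 21.6% of tested genes, and in 4 (11.4%), Dhcr7, Fads1, Acsl3 and Abcg1, both were below, against 20.9%. Of the 12, 10 were Mvk, Mvd, Fdft1, Sqle, Cyp51, Nsdhl, Hsd17b7, Ebp, Sc5d and Insig1, and the others were Scd1 and Scd2. Scd1 was low, at 4.26 and 4.24 in WT and 4.27 and 4.34 in Nfkb2-KO libraries, and low genes hardly varied. Within replicate numbers, 19 members (54.3%) were higher in both pairs and 6 (17.1%) lower in both, against 34.4% and 30.9% of tested genes. These genes were named from their values.

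**Figure D3:**
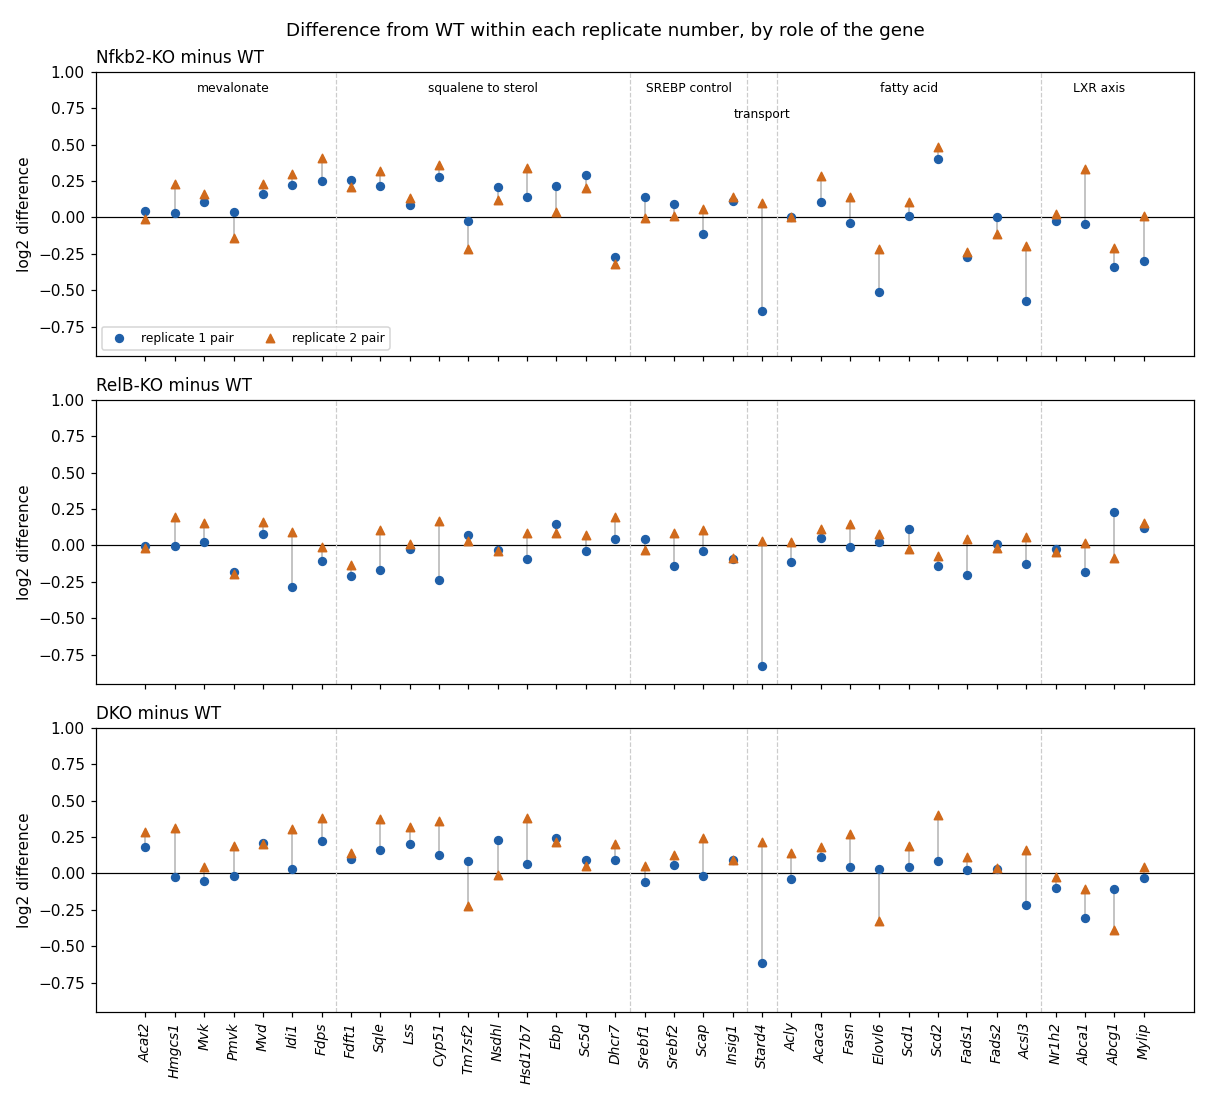
Difference from WT in each of the 3 knockouts (y axis, log2 units) for the 35 genes (x axis, by role), with a circle for the replicate 1 pair and a triangle for the replicate 2 pair. In Nfkb2-KO cells both pairs were higher for 19 genes, in RelB-KO cells for 8 and in DKO cells for 20, and the 3 panels share the WT libraries.

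In RelB-KO cells the members showed no common direction. Of 35 members 15 were positive and 20 negative, with a median log2 difference of -0.01 and a range of -0.40 to 0.14. With limma 0 members were called, against 0.00725% of tested genes, and 0 members had an unadjusted p under 0.05, against 1.24%. In the model with the replicate block 0 were called, against 0.0145%, and 1 member had an unadjusted p under 0.05, against 3.13%. Libraries did not overlap in 7 members, with Mvk, Mvd, Ebp and Dhcr7 higher (11.4%, against 9.63% of tested genes) and Pmvk, Fdft1 and Scd2 lower (8.57%, against 11%). Within replicate numbers 8 members were higher in both pairs, against 22.4% of tested genes, and 8 lower in both, against 21.3%. Pmvk, the phosphomevalonate kinase, was at 8.12 and 8.26 in WT, 7.94 and 8.06 in RelB-KO, 8.16 and 8.12 in Nfkb2-KO, and 8.10 and 8.45 in DKO libraries. The difference between RelB-KO and WT was -0.19 ± 0.13 (limma adjusted p 1.00), smaller than the spread of Pmvk between the DKO libraries.

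In DKO cells sterol synthesis genes again had mostly higher means than in WT. Of the mevalonate genes 6 of 7 were positive (median 0.17), and of the squalene-to-sterol genes 9 of 10 (median 0.19). Among fatty acid genes 7 of 9 were positive (median 0.07), and among LXR genes 1 of 4 (median -0.13). Over the 35 members 26 were positive, with a median of 0.11 and a range of -0.25 to 0.30. With limma 0 were called, against 0.0145% of tested genes, and 3, Mvd, Sqle and Ebp, had an unadjusted p under 0.05, against 5.18%. The blocked model called 0, against 0.0652%, and 9 had an unadjusted p under 0.05, each of them higher, against 12.9%.

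Both DKO libraries were above both WT libraries in 13 members (37.1%), against 16.6% of tested genes, and below in 2, Abca1 and Abcg1 (5.71%), against 17.6%. Within replicate numbers 20 members (57.1%) were higher in both pairs and 3 (8.57%) lower in both, against 29.8% and 29.4% of tested genes. Ebp, the sterol isomerase, was at 9.83 and 9.98 in WT, 9.98 and 10.06 in RelB-KO, 10.05 and 10.02 in Nfkb2-KO, and 10.08 and 10.19 in DKO libraries. DKO libraries were the highest 2 of the 8, with a difference from WT of 0.23 ± 0.09 (limma adjusted p 0.861). Without WT replicate 1, the lowest library for this X-linked gene, the difference was 0.16. Lss, the cyclase that makes lanosterol, was at 9.47 and 9.62 in WT, 9.45 and 9.63 in RelB-KO, 9.56 and 9.75 in Nfkb2-KO, and 9.68 and 9.94 in DKO libraries. It was highest in DKO cells within each replicate number, by 0.26 ± 0.13 over WT (limma adjusted p 0.861). Acat2, which condenses acetyl-CoA units, was at 8.37 and 8.58 in WT, 8.36 and 8.56 in RelB-KO, 8.41 and 8.57 in Nfkb2-KO, and 8.55 and 8.87 in DKO libraries. Its DKO library was the highest within each replicate number, with a mean difference from WT of 0.23 ± 0.14 (limma adjusted p 0.861), and Acat2 has 2 near copies in the genome over 65.6% of its transcript.

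**Figure D4:**
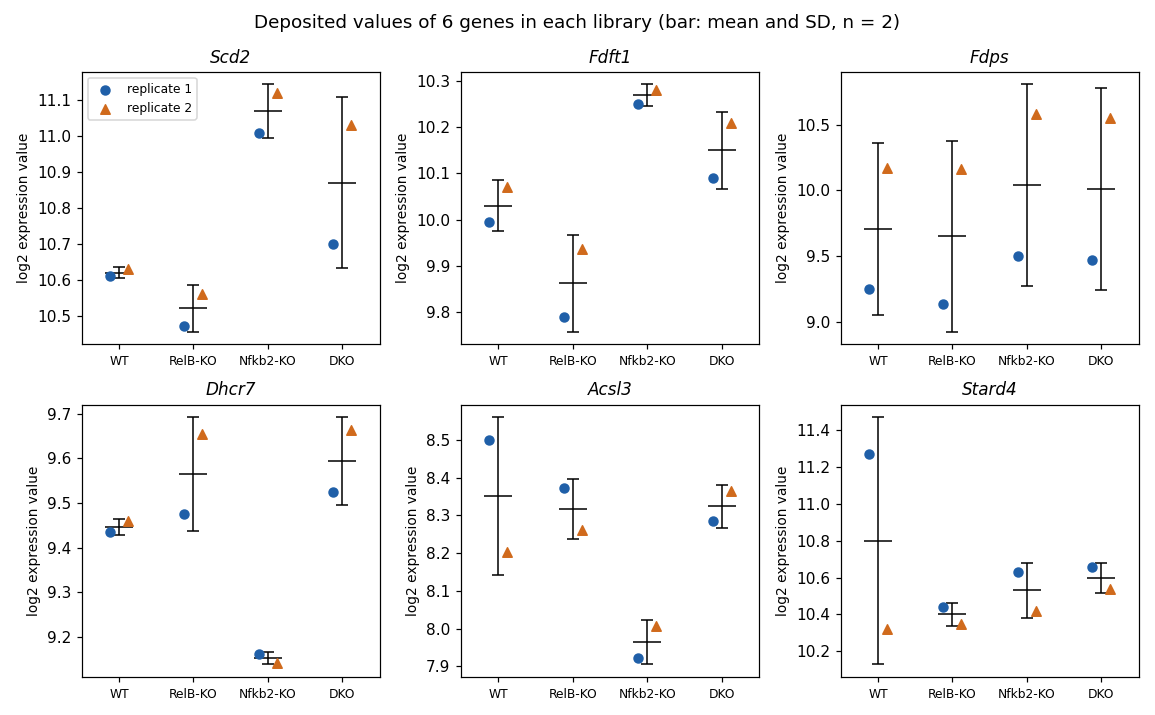
Deposited log2 values (y axis) of Scd2, Fdft1, Fdps, Dhcr7, Acsl3 and Stard4 in each library, by genotype (x axis), with replicate 1 as a circle, replicate 2 as a triangle and bars for the mean and SD (n = 2). Nfkb2-KO libraries are highest for Fdft1 and lowest for Dhcr7 and Acsl3, and WT replicate 1 stands alone for Stard4 at 11.27.

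Set against each other, the single knockouts gave the most called members with the replicate block. For Nfkb2-KO minus RelB-KO 25 of 35 members were positive, with a median log2 difference of 0.06 and a range of -0.41 to 0.55, and all 7 mevalonate genes were positive. With limma 0 members were called, against 0.797% of tested genes, and 9, 6 higher and 3 lower, had an unadjusted p under 0.05, against 11.9%. With the replicate block 4 members were called, 3 higher and 1 lower, which is 4 of 35 against 4.46% of tested genes. Scd2 was higher by 0.55 ± 0.12 (limma adjusted p 0.138, and 0.0104 with the block) and Fdft1 by 0.40 ± 0.09 (0.131 and 0.0151). Fdps was higher by 0.39 ± 0.57 (0.880 and 0.0247), and Dhcr7 was lower, at -0.41 ± 0.09 (0.145 and 0.0256). With the block and RelB-KO replicate 1 left out, Scd2 was the 1 member called (adjusted p 0.0469), and with any other of these 4 libraries left out 0 were called. Libraries did not overlap in 12 higher members (34.3%, against 20.9% of tested genes) and 8 lower members (22.9%, against 21.1%). Both pairs were higher for 21 members (60%) and lower for 10 (28.6%), against 32.8% and 34.6%. Unadjusted p-values of the blocked model were under 0.05 for 16 members, 11 higher and 5 lower, against 20.1%.

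Dhcr7 was also the member that differed most between DKO and Nfkb2-KO cells. It was higher in DKO by 0.44 ± 0.09 (limma adjusted p 0.114), and it rose with the replicate block (adjusted p 0.0164). With the block and 1 of these 4 libraries left out, 0 members were called. For this comparison 20 of 35 members were positive, with a median of 0.03 and a range of -0.35 to 0.44. With limma 0 members were called, against 0.768% of tested genes, and 4, Dhcr7, Fads1 and Acsl3 higher and Abca1 lower, had an unadjusted p under 0.05, against 9.86%. With the block 1 was called, against 5.02%, and 8, 5 higher and 3 lower, had an unadjusted p under 0.05, against 16.3%. Libraries did not overlap in 7 higher members (20%, against 17.4%) and 5 lower members (14.3%, against 17.8%), shares near those of all genes. Both pairs were higher for 12 members (34.3%) and lower for 8 (22.9%), against 28.6% and 31.5%.

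Between DKO and RelB-KO cells 27 of 35 members were positive, with a median of 0.09 and a range of -0.32 to 0.36, and the 4 LXR genes were all negative. Both DKO libraries were above both RelB-KO libraries in 16 members (45.7%), against 13.2% of tested genes, and below in 3 (8.57%), Mvk, Abca1 and Abcg1, against 14.3%. Both replicate pairs were higher for 23 members (65.7%) and lower for 4 (11.4%), against 28.2% and 30.4%. With limma 0 members were called, against 0.00725% of tested genes, and 5, 4 higher and 1 lower, had an unadjusted p under 0.05, against 2.88%. With the replicate block 0 were called, against 0.0145%, and 12, 11 higher and 1 lower, had an unadjusted p under 0.05, against 8.81%. The comparisons with WT share the WT libraries, and those among knockouts share theirs, so their counts are not separate evidence.

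Whether RelB loss acted differently with and without Nfkb2 was tested as an interaction, the difference DKO minus Nfkb2-KO less the difference RelB-KO minus WT. With limma 0 of 35 members were called, against 0.00725% of tested genes, and 2 had an unadjusted p under 0.05, against 4.45%. These were Dhcr7 (0.32 ± 0.13, adjusted p 1.00) and Fads1, a fatty acid desaturase (0.40 ± 0.13, adjusted p 0.951). The blocked model called 0, against 0.471%, and 3 had an unadjusted p under 0.05, against 8.36%. The members' median was 0.02.

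The genes that control the pathway were not called in any contrast. The 4 members of SREBP control, Srebf1, Srebf2, Scap and Insig1, differed from WT by between -0.03 and 0.12 in Nfkb2-KO, -0.09 and 0.03 in RelB-KO, and 0.00 and 0.11 in DKO cells. The medians of these differences were 0.06, -0.01 and 0.09, and 0 of the 4 had an unadjusted p under 0.05 in any of these 3 comparisons. Insig1 was above RelB-KO in both Nfkb2-KO and both DKO libraries, by 0.21 ± 0.09 in Nfkb2-KO (limma adjusted p 0.413, and 0.111 with the replicate block) and by 0.18 ± 0.09 in DKO cells (1.00 and 0.546). Nr1h2, the LXR member, was at 11.36 to 11.51 in the 8 libraries.

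Other genes of these pathways were read from lists that hold no member. Of 15 other cholesterol genes 11 were positive in Nfkb2-KO, 12 in RelB-KO and 13 in DKO cells against WT, with medians of 0.08, 0.02 and 0.12. Of 13 tested genes of other fatty acid enzymes 6, 7 and 9 were positive, and of 7 tested other LXR genes 3, 7 and 5. With limma 0 genes of these 3 lists were called in any of the 7 contrasts, against 0.00725% to 0.797% of tested genes. With the replicate block 1, the elongase Elovl5, was called, with lower values in Nfkb2-KO than in DKO and RelB-KO cells. In these comparisons 5.02% and 4.46% of tested genes were called with the block. The gene listed as Sc4mol, which RefSeq gives as an older symbol of Msmo1, the sterol methyl oxidase, was not chosen by the rule. Its values were 10.41 and 10.41 in WT, 10.33 and 10.45 in RelB-KO, 10.67 and 10.66 in Nfkb2-KO, and 10.65 and 10.62 in DKO libraries. The 4 libraries with nfkb2 F/F were above the 4 without it, and the difference between Nfkb2-KO and WT was 0.25 ± 0.07 (limma adjusted p 0.285).

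Cell division genes differed in some of the same comparisons. In a list of 20 cell cycle genes 12 were negative and 8 positive in Nfkb2-KO against WT (median -0.30, range -0.62 to 0.26). Their summed log2 level was 14.91 to 15.19 in WT, 14.74 to 15.34 in RelB-KO, 14.97 to 15.29 in Nfkb2-KO and 15.05 to 15.65 in DKO libraries. In DKO against WT 20 were positive (median 0.30). In DKO against Nfkb2-KO, where Dhcr7 was called with the block, 19 were positive (median 0.47), and in DKO against RelB-KO 20 were (median 0.29). In Nfkb2-KO against RelB-KO 12 were negative and 8 positive (median -0.26). In RelB-KO against WT 11 were positive (median 0.01), and for the interaction 20 were positive (median 0.46). With limma 0 of the 20 were called in any of the 7 contrasts, against 0.00725% to 0.797% of tested genes. With the replicate block 9, Mki67 among them, rose in DKO against Nfkb2-KO cells, against 5.02% of tested genes called. Mki67 and Ccna2, 2 of the 20, fell in Nfkb2-KO cells against both WT (2.91% of tested genes called) and RelB-KO (4.46%). Mki67 was called for the interaction (0.471% of tested genes called). The block called 0 in the other 3 contrasts. The part of cell division in the lipid gene values was not tested.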

How the data were processed

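RNA was made into TruSeq libraries, with 30 M reads per sample in the design text. STAR, mm10 and DESeq2 1.10.1 are named per the submitters' processing notes, without roles. The deposited values are log2 expression headed as batch-corrected RPKM per the file headers. They did not behave as RPKM: un-logged they summed to 18.2 to 19.7 M per library, and low genes hardly varied, so differences of low genes are too small and depth behind each value is unknown. The authors also deposited log2 fold changes with p-values and adjusted p-values, given here only as theirs.

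Of 22432 genes, 6247 listed at 0 in all libraries and Zwilch, with a blank cell, were left out, 25 symbols turned into dates were not named, and tests covered the 13797 genes whose un-logged mean reached 1. limma 3.58.1 (R 4.3.3) was fitted to all 8 libraries with the 4 genotypes and a variance trend, with Benjamini-Hochberg adjustment over all tested genes, called under 0.05. Groups were taken from the labels. Differences between replicates correlated across genes at 0.812 to 0.887 between genotypes, and the column names number the replicates alike, so a replicate block was fitted beside it. Both fits were run on simulated data with planted changes, where only recovery of changes of 2 log2 units with the block was required. That check does not measure how often differences as small as those of the members would be called. Pseudocount, filters, quantile scaling, variance trend, left-out libraries and 2-group fits were varied, and the block with left-out libraries or with quantile scaling was added after seeing the data.

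The members and lists were chosen with earlier results of these data known. Genes given in every library were those called in any contrast with or without the block and the 8 largest differences of each knockout from WT. Exonic lengths, overlaps and copies (at least 90% identity over at least 200 bases) came from GENCODE and blastn 2.17.0, promoters from RefSeq.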

Additional observations from a re-analysis of the deposited data

How the results depend on the processing

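Without the replicate block, 0 members were called in each of the 7 contrasts under every alternative run, from 0 to 0 with each library left out. With the replicate block, members called went from 0 to 1 in Nfkb2-KO against WT (Scd2), to 1 in DKO against Nfkb2-KO (Dhcr7) and to 4 in Nfkb2-KO against RelB-KO, also with quantile scaling (1, 1 and 4), and stayed at 0 in the other 4 contrasts. With the block and 1 library left out, the counts ranged from 0 to 1 in all contrasts with a change: Scd2 in Nfkb2-KO against RelB-KO without RelB-KO replicate 1, and Stard4 without WT replicate 2 in the 3 comparisons with WT and the interaction, which leaves the high WT replicate 1 as the lone WT library. A lone library is assumed to vary like the other groups.

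Fdps in Nfkb2-KO against RelB-KO reversed to -0.13 without RelB-KO replicate 1 and to -0.15 without Nfkb2-KO replicate 2 (range -0.15 to 0.93), where unlike replicate numbers are compared. Stard4 reversed without WT replicate 1, with ranges of -0.74 to 0.20 in Nfkb2-KO, -0.88 to 0.0732 in RelB-KO and -0.67 to 0.27 in DKO cells against WT, and with the block and that library left out it was 0.14, 0.00497 and 0.21. Of 119 medians over the members under alternatives, 20 moved by more than the spread between replicate pairs. The median kept its sign in 11 of 16 alternatives for RelB-KO against WT and 15 of 16 for DKO against Nfkb2-KO, and in all alternatives for the other contrasts. Its size moved by over 1.5 times with 1 library left out: from 0.07 to between 0.02 (without Nfkb2-KO replicate 2, and with the block without WT replicate 2) and 0.11 (with the block without Nfkb2-KO replicate 2) in Nfkb2-KO against WT, and from 0.11 to between 0.04 (without DKO replicate 2) and 0.18 (without DKO replicate 1) in DKO against WT. In Nfkb2-KO against RelB-KO it moved from 0.06 to between 0.02 (without RelB-KO replicate 1) and 0.11 (without RelB-KO replicate 2). With quantile scaling it was 0.03 there. In DKO against RelB-KO it moved from 0.09 to between 0.04 (without DKO replicate 2) and 0.145 (with the block without DKO replicate 1). The interaction median of 0.02 reached 0.08 without RelB-KO replicate 2, and that of DKO against Nfkb2-KO ranged from -0.02 to 0.07. Against WT, Sqle ranged from 0.15 to 0.39 in Nfkb2-KO and from 0.14 to 0.39 in DKO, Cyp51 from 0.20 to 0.44 and Acsl3 from -0.54 to -0.23 in Nfkb2-KO, with the ends at a WT library left out. Read depth per value is not known, and 2 libraries per genotype limit the precision of each difference.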
